A study of Mus musculus with 64 samples.

Results

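The regulators of G protein signalling (RGS) are a family of proteins that speed up the hydrolysis of GTP on G protein alpha subunits. The results below cover 10 of the 21 genes of the deposited tables whose symbol is Rgs followed by a number: Rgs2, Rgs4, Rgs7, Rgs8, Rgs9, Rgs10, Rgs14, Rgs16, Rgs17 and Rgs20. They were chosen by gene symbol, and the level of a gene is the sum over its annotated transcripts, 51 in all, of the deposited FPKM, which are fragments scaled to the length of the transcript and to the mapped fragments of the library. RNA was taken from the nucleus accumbens (NAc) and the prefrontal cortex (PFCx) of adult male C57BL/6N mice, 8 to 10 weeks old, 2 h after a single intraperitoneal injection. The 64 libraries comprise, in each tissue, 8 of saline and 4 of each of 6 drugs: the antipsychotics haloperidol at 1 mg/kg and risperidone at 0.5 mg/kg, the antidepressants mianserin at 20 mg/kg and venlafaxine at 16 mg/kg, and methamphetamine at 2 mg/kg and ketamine at 20 mg/kg. Haloperidol and risperidone were dissolved with a drop of hydrochloric acid, and the controls received saline. Both tissues were cut from brain slices, and the labels do not say whether they came from the same mice, whether mice were pooled, or what sets libraries of a group apart, so that p-values measure the spread between these libraries, which may be technical.

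When a receptor is activated, its G protein alpha subunit binds GTP and signals to effectors such as adenylyl cyclase and potassium channels until the GTP is hydrolysed, and an RGS protein shortens this phase. Rgs2 prefers Gq and is an early response gene in many cells. Rgs4, Rgs8 and Rgs16 are small members of one subfamily that act on Gi and Gq. Rgs7 and Rgs9 belong to the R7 subfamily, which works bound to the G beta subunit Gnb5, and the long form of Rgs9 is known as the RGS protein of striatal medium spiny neurons, where it limits dopamine and opioid receptor signalling. Rgs10, best studied in microglia, and Rgs14, which also carries a GoLoco motif that binds inactive Gi, belong to the R12 subfamily. Rgs17 and Rgs20 belong to the RZ subfamily, which acts on Gz and other Gi proteins. Bulk tissue was sequenced, and fewer cells of a type cannot be told apart from less RNA per cell.

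Start regions of 3 members are shown. The sum of Rgs2 was called lower after mianserin and venlafaxine against all saline libraries. For a single drug it was not called against the saline of the same sample set, described below. Rgs9 and Rgs4 lay on opposite sides of the tissue comparison. The 250 bases before the RefSeq start (GRCm38.p6, minus strand) are written 5′ to 3′. Capitals mark TGACG or CGTCA, the half-site of the cyclic AMP response element, and TATAAA, both searched on both strands. The intervals are chr1:144004150-144004399 for Rgs2, chr1:169747643-169747892 for Rgs4 and chr11:109298182-109298431 for Rgs9.
Rgs2: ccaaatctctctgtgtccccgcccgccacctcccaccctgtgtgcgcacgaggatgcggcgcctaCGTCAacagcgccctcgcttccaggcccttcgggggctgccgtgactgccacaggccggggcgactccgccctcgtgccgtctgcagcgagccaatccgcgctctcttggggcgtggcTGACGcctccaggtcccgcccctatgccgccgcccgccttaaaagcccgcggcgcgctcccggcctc
Rgs4: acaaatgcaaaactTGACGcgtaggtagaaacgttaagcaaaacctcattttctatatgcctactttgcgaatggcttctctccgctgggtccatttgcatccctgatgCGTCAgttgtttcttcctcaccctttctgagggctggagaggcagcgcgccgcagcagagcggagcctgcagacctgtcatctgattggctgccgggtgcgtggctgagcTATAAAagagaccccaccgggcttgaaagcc
Rgs9: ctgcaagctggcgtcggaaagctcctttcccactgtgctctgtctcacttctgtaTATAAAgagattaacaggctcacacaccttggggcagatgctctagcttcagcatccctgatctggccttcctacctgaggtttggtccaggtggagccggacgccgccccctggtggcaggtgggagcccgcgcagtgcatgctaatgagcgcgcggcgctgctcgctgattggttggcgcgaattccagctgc
The table of promoters held 10 starts of 8 members, with no entry matched for Rgs14 and Rgs20. A cyclic AMP half-site lay before 3 of the 10 starts, those of Rgs2 (185 and 67 bases before the start), Rgs4 (236 and 141 bases) and Rgs8 (46 bases). Of 32851 mouse promoters of the same length 17.8% held the half-site, and 3.90% held 2 or more. TATAAA lay 31 bases before the start of Rgs4 and 195 bases before that of Rgs9, and in 7.59% of all promoters. The G and C content was 72.4% for Rgs2, 53.6% for Rgs4 and 59.6% for Rgs9, against a median of 52.4%. These matches describe the letters of the windows only. On GRCm38, 6 of the 10 genes lie on chromosome 1, among them Rgs2 (chr1:143999338-144004161, minus strand), Rgs4 (chr1:169741477-169747642, minus) and Rgs20 (chr1:4909576-5070285, minus). Rgs9 lies at chr11:109225355-109298129 (minus strand) and Rgs14 at chr13:55369732-55384687 (plus strand).

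The libraries held an estimated 1.52 to 3.26 gigabases of aligned sequence (median 2.39). Saline libraries carry a label of set I or set II, with 4 of each per tissue. NAc libraries of saline I, haloperidol, risperidone and methamphetamine listed 85287 to 87827 transcripts above 0 and those of saline II, mianserin, venlafaxine and ketamine 107099 to 110556. In the PFCx all 32 lay between 108556 and 110852. Drugs were placed in a sample set by the NAc libraries, since this number does not separate PFCx libraries. Each drug lies in only 1 set, and every called drug difference of a member is given against all 8 saline libraries and against the 4 of its own set. The tissue labels were checked with markers in saline: the summed FPKM of 9 medium spiny neuron genes was 585 to 796 in the NAc and 31.99 to 97.9 in the PFCx, and that of 8 cortical projection neuron genes 28.3 to 75.5 and 180 to 231. Oligodendrocyte markers also differed, with 5 of 5 higher in the NAc (512 to 703 against 131 to 184). The PFCx library saline II 4 stood apart, with the spiny neuron sum of 97.9 against 51.0 or less in the other 7. Of 5 interneuron markers 0 were higher and 2 lower in the NAc, of 5 astrocyte markers 1 and 2, of 5 microglia markers 2 and 0, and of 5 endothelial and mural markers 0 and 1. No marker was at 0 in all libraries of a group.

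In saline, the NAc was led by Rgs9 and the PFCx by Rgs4. The striatal member Rgs9 ranged from 58.0 to 76.9 FPKM over the 8 NAc libraries with a median of 64.6, and from 3.70 to 12.5 with a median of 4.12 in the PFCx. Rgs4 ranged from 30.9 to 37.9 (median 33.9) in the NAc and from 47.3 to 54.9 (median 50.4) in the PFCx. In neither case did the tissues overlap, and the order of the 2 genes was turned around between the tissues. In the NAc the levels descended from Rgs9 over Rgs4, Rgs8, Rgs14, Rgs2, Rgs10, Rgs7, Rgs17 and Rgs20 to Rgs16. The ranges of Rgs14 and Rgs2 overlapped, as did those of each neighbouring pair from Rgs10 to Rgs20, while the other neighbours did not. In the PFCx the order was Rgs4, Rgs7, Rgs8, Rgs14, Rgs2, Rgs17, Rgs20, Rgs9, Rgs10 and Rgs16, and every neighbouring pair from Rgs7 to Rgs10 overlapped. Rgs16 was the lowest in both tissues, at 1.05 ± 0.172 FPKM in the NAc and 0.961 ± 0.193 in the PFCx (SD, n = 8).

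**Figure D1:**
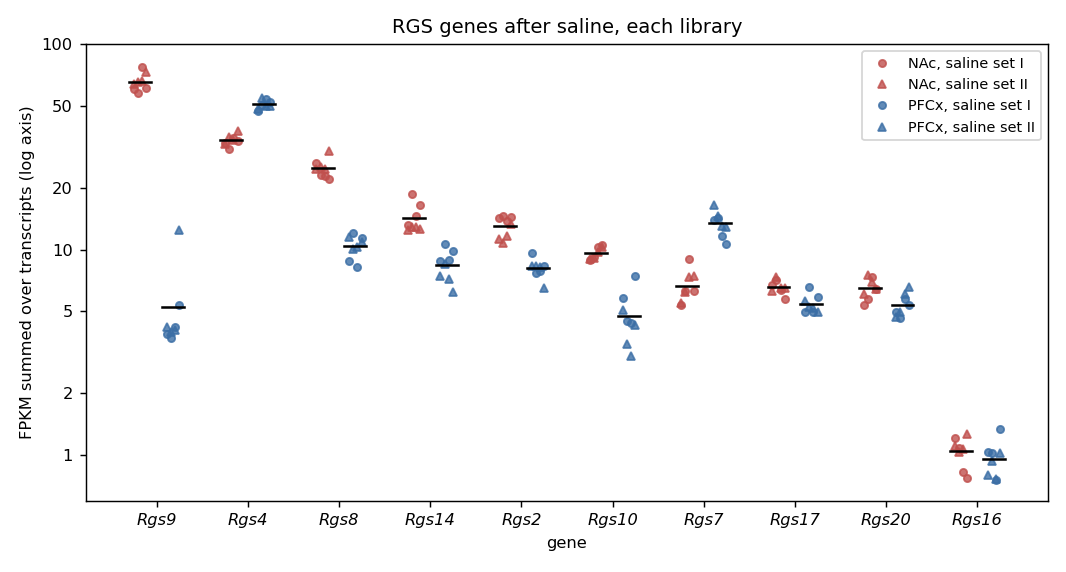
Gene FPKM (log axis) of the 10 RGS genes in the 16 saline libraries, with NAc and PFCx side by side; circles are set I, triangles set II and black bars the means of 8 libraries. Rgs9 sits at 58.0 to 76.9 in the NAc and at 3.70 to 12.5 in the PFCx, and Rgs16 is lowest in both tissues.

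To find which members distinguish the tissues, log2(FPKM + 1) of the 8 NAc and 8 PFCx saline libraries was compared with limma, with Benjamini-Hochberg adjustment over 37034 genes. Of the 10 members, 7 were higher in the NAc, 2 were lower and Rgs16 was not called. Over all genes 33.9% were called, 7.16% as higher and 26.8% as lower in the NAc. The median difference of the members was 0.43 on the log2 scale and that of all genes -0.10. Of the 9 called members, 7 had no overlap between the tissues, and for each of these the exact permutation test gave 0.000155, the smallest p that 8 against 8 libraries allow. The share of all genes without overlap is not given here, so that this count describes the members only.

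Rgs9 had the largest difference, with means of 65.6 ± 6.51 FPKM in the NAc and 5.23 ± 2.98 in the PFCx (SD, n = 8). Its log2(FPKM + 1) differed by 3.51 between the tissues (SE 0.17, adjusted p = 1.0e-10), and the ratio of the means was 12.5. The highest PFCx library was saline II 4 at 12.5, while the other 7 lay between 3.70 and 5.35. The same library carried the high sum of spiny neuron markers, and the part of these markers in its Rgs9 level was not tested. Without any 1 of the 16 libraries the difference was 3.46 to 3.68.

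Rgs8, which is related to Rgs4, was also higher in the NAc. Its levels were 22.1 to 30.2 FPKM (median 24.6) in the NAc and 8.26 to 12.1 (median 10.6) in the PFCx. The groups did not overlap, and the log2 difference was 1.19 (SE 0.08, adjusted p = 3.3e-09). Rgs10 was at 8.89 to 10.5 (median 9.51) in the NAc and 3.04 to 7.45 (median 4.45) in the PFCx. The lowest NAc library thus lay above the highest PFCx library, and the log2 difference was 0.92 (SE 0.12, adjusted p = 1.1e-05). Of the 5 microglia markers, 2 were called higher in the NAc, Csf1r by 0.24 and Cx3cr1 by 0.14.

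Rgs14 ranged from 12.4 to 18.6 FPKM (median 13.0) in the NAc and from 6.21 to 10.7 (median 8.63) in the PFCx. Every NAc library exceeded every PFCx library, and the log2 difference was 0.69 (SE 0.10, adjusted p = 6.6e-05). Rgs2 was at 10.8 to 14.5 (median 13.5) and 6.47 to 9.60 (median 8.24), again without overlap. Its log2 difference was 0.62 (SE 0.07, adjusted p = 6.8e-06).

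The RZ members differed least among those called. Rgs17 was at 5.73 to 7.39 FPKM (median 6.52) in the NAc and 4.95 to 6.55 (median 5.22) in the PFCx, a log2 difference of 0.24 (SE 0.06, adjusted p = 0.00502). Rgs20 was at 5.37 to 7.54 (median 6.42) and 4.66 to 6.60 (median 5.18), a log2 difference of 0.23 (SE 0.07, adjusted p = 0.0275). Both pairs of ranges overlapped, and the exact permutation p was 0.00218 for Rgs17 and 0.0131 for Rgs20. Within saline set I, where 35.3% of all genes were called, neither passed (adjusted p = 0.162 and 0.114), and within set II, with 20.8% called, Rgs20 did not (0.161). Rgs20 also lost its call without NAc saline I 3, PFCx saline II 1 or PFCx saline I 2 (adjusted p = 0.0543, 0.0548 and 0.0502).

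Rgs4 and Rgs7 were the members higher in the PFCx. Rgs4, on the ranges given above, had a log2 difference between NAc and PFCx of -0.57 (SE 0.05, adjusted p = 4.3e-08), and the NAc mean was 0.669 times the PFCx mean. Rgs7, the R7 relative of Rgs9, lay between 5.38 and 8.98 FPKM (median 6.27) in the NAc and between 10.6 and 16.4 (median 13.5) in the PFCx. Its tissues did not overlap, and the difference was -0.91 (SE 0.10, adjusted p = 1.2e-06). The 2 members of the R7 subfamily therefore differed between the tissues in opposite directions. Rgs16 differed by 0.06 with an adjusted p of 0.468.

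**Figure D2:**
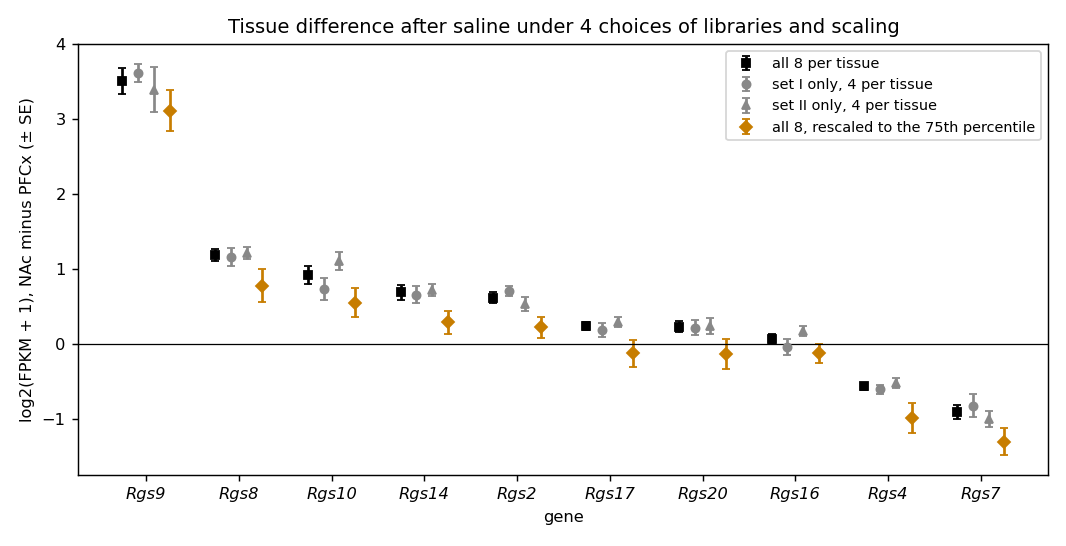
Difference between NAc and PFCx in saline on the log2(FPKM + 1) scale for the 10 members, with bars of 1 SE from limma. Black squares use all 8 libraries per tissue, grey circles and triangles the 4 of set I or set II, and orange diamonds all 8 rescaled to the 75th percentile. Rgs9 reaches 3.51 over all libraries, Rgs4 (-0.57) and Rgs7 (-0.91) lie on the PFCx side, and the diamonds lie lowest of the 4 symbols for all 10 genes.

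The directions depend in part on the scale. A 75th percentile scaling was tried, with the percentile taken over the gene values above 0 in each library. The number of transcripts above 0 differed between sets I and II in the NAc, and its part in the scaled results was not tested. When each library was rescaled to the same 75th percentile, which put the median of all genes at -0.19, 5 members were called, with 33.7% of all genes called (1.45% higher and 32.3% lower): Rgs9 at 3.11, Rgs8 at 0.78 and Rgs10 at 0.55 in the NAc, and Rgs4 at -0.997 and Rgs7 at -1.30 in the PFCx. Rgs2 (0.22, adjusted p = 0.202) and Rgs14 (0.29, 0.134) were then no longer called, and Rgs17 (-0.13, 0.558), Rgs20 (-0.14, 0.572) and Rgs16 (-0.13, 0.417) changed sign without a call.

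At the level of single transcripts, 50 of the 51 could be tested, and 17 were higher and 4 lower in the NAc, against 13.7% of all transcripts called (4.27% higher and 9.46% lower). All 5 transcripts of Rgs9 were higher in the NAc. The most abundant, ENSMUST00000103062 with a coding sequence for 449 residues, averaged 22.2 FPKM in NAc libraries and 1.33 in PFCx libraries. The transcript for 675 residues, ENSMUST00000020920, had means of 14.3 and 1.10 and a log2 difference of 2.97. That for 484 residues, ENSMUST00000106706, had means of 15.7 and 1.71. Cufflinks divides shared reads among isoforms by likelihood, so that the levels of the isoforms of a gene depend on each other. Rgs8 had 6 of 10 transcripts called, all higher in the NAc, and Rgs7 had 3 of 8, all lower. The main Rgs4 transcript, ENSMUST00000027991 (205 residues), had means of 27.7 and 42.1 FPKM. No single transcript of Rgs16 or Rgs20 was called.

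Genes of the G protein pathway around the members lay on both sides of the tissue comparison. Among 20 tested relatives and partners of the RGS genes, 6 were higher and 7 lower in the NAc (median difference -0.08). Ric8b, a chaperone of the Gs and Golf alpha subunits, was higher by 1.23 (adjusted p = 8.5e-12), and Rgs6, the R7 member most like Rgs7, was at -1.12 (6.3e-10). Of 13 G alpha genes 2 were higher and 4 lower (median -0.00). Gnal, which couples striatal dopamine and adenosine receptors to adenylyl cyclase, was higher by 2.04 (4.6e-13), and Gnai1 was at -0.62 (4.6e-07). Of 14 G beta and gamma genes 5 were higher and 5 lower (median -0.14), with Gng7, the gamma partner of Gnal, at 3.10 (3.1e-13). Of 14 effectors 1 was higher and 7 lower (median -0.50). The 1 was Adcy5, the main striatal adenylyl cyclase, at 2.68 (5.7e-13), and Adcy2 was at -1.23 (1.1e-10). Of 24 receptors 10 were higher and 7 lower (median 0.01), led by the serotonin receptor Htr2c at 2.06 (2.8e-12) and the kappa opioid receptor Oprk1 at 1.88 (1.2e-11).

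For the drugs, a moderated F test over the 6 differences from saline was made in each tissue first. In NAc libraries it called 4 of the 10 members, where 36.9% of all genes were called: Rgs2 (adjusted p = 1.2e-05), Rgs14 (0.0013), Rgs4 (0.0273) and Rgs20 (0.0316). Against the saline libraries of the same sample set, 1.63% of all genes and only Rgs2 among the members were called (0.0452), and with the replicate number as a block in that comparison 0 members were called. The others were then at 0.319 for Rgs14, 0.850 for Rgs4 and 0.442 for Rgs20. In the PFCx none of the 10 was called by limma with either control, with 3.34% of all genes called against all saline and 1.45% against saline of the same set. The lowest adjusted p there were 0.0966 for Rgs2 and 0.107 for Rgs4.

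Between single drugs and saline, 60 pairs of member and drug were tested per tissue. In the NAc 5 were called and 14 had an unadjusted p under 0.05. In the PFCx 1 was called and 7 had an unadjusted p under 0.05. Against saline of the same set limma called 0 pairs in both tissues, with 11 pairs in the NAc and 6 in the PFCx under 0.05 before adjustment. Before adjustment, 4922 (methamphetamine) to 7991 (venlafaxine) of the 37034 genes were under 0.05 in the NAc against all saline. In the PFCx these were 2652 (venlafaxine) to 5354 (risperidone). Against saline of the same set they were 2116 (venlafaxine) to 3708 (ketamine) in the NAc and 2203 (haloperidol) to 4862 (mianserin) in the PFCx. Of all genes, 0.721% were called after haloperidol in NAc libraries and 0.162% in PFCx libraries (0.235% and 0.0216% against saline of the same set). For risperidone these shares were 0.729% and 0.51% (0.213% and 0.162%), and for mianserin 1.84% and 0.667% (0.273% and 2.01%). For venlafaxine they were 1.83% and 0.0054% (0.0081% and 0.74%), for methamphetamine 0.194% and 0.351% (0.0891% and 0.159%), and for ketamine 1.97% and 0.0162% (0.967% and 1.51%). After 75th percentile scaling 6 members were called higher in the NAc after mianserin, 6 after venlafaxine and 5 after ketamine, where 27.5%, 33.9% and 22.4% of all genes were called. That scaling called 0 members after haloperidol, risperidone and methamphetamine, with 0.0328%, 0% and 0.00757% of all genes. With it the F tests called all 10 members in the NAc, along with 77.5% of all genes, and all 10 for the difference between the tissues, along with 62% of all genes.

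Rgs2 was lower after mianserin in both tissues when compared with all saline libraries. In the NAc the 4 mianserin libraries were at 9.24, 10.4, 9.96 and 8.99 FPKM. The saline libraries of set I were at 14.2, 14.5, 13.8 and 14.3, and those of set II at 11.2, 10.8, 11.6 and 13.3. All mianserin libraries lay below all saline libraries of either set, and saline II itself lay below saline I. Against all 8 saline libraries Rgs2 fell by 25.6% after mianserin (log2 difference -0.39, SE 0.07, adjusted p = 0.00558, exact permutation p = 0.00404). Against saline II the difference was -17.7% (log2 difference -0.25, SE 0.07), with an adjusted p of 0.148 and an exact permutation p of 0.0286, the smallest that 4 against 4 libraries allow. The call against all saline was kept without any 1 of the 32 libraries (adjusted p = 0.00156 to 0.035). It was lost when only protein-coding transcripts were summed (-0.14, adjusted p = 0.430), and after 75th percentile scaling the difference was 0.10 against all saline and -0.25 against saline II (adjusted p = 0.528 and 0.0566). That scaling moved the median of all genes to 0.19 for mianserin.

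Venlafaxine, an inhibitor of serotonin and noradrenaline reuptake, gave NAc Rgs2 levels of 9.75, 11.6, 9.24 and 10.04 FPKM. Of these, 1 lay within the saline range and 3 below it. The log2 difference from all saline was -0.32 (adjusted p = 0.0366, exact permutation p = 0.0141), and from saline II -0.19 (0.741 and exact 0.114). It was no longer called without any 1 of the 4 saline I libraries, or without venlafaxine 1, 3 or 4 (adjusted p up to 0.165). Ketamine libraries, in the same set, were at 10.4 to 12.4. After methamphetamine, of set I, Rgs2 was at 16.3, 14.3, 16.3 and 17.3, with a log2 difference of 0.29 that was not called (adjusted p = 0.112, against saline I 0.16 and 0.734). Over all NAc libraries Rgs2 was at 12.7 to 17.3 (median 14.3) in set I and 8.99 to 13.3 (median 10.6) in set II. The mean of saline alone was 14.2 in set I and 11.7 in set II, without overlap (exact permutation p = 0.0286, adjusted 0.190 over 20 such tests).

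In the PFCx the mianserin libraries had Rgs2 at 5.11, 6.61, 5.27 and 6.82 FPKM. The saline libraries were at 9.60, 7.70, 7.90 and 8.28 in set I and at 8.29, 8.31, 8.19 and 6.47 in set II. Saline II 4, the library with the high spiny neuron sum, was the only saline library within the mianserin range. Rgs2 fell by 26.4% against all saline (log2 difference -0.39, SE 0.09, adjusted p = 0.0366, exact permutation p = 0.00606). Against saline II the log2 difference was -0.34 (SE 0.11, adjusted p = 0.0937, exact permutation p = 0.0857). The call was lost without mianserin 1 or 3, saline I 1, 3 or 4, or saline II 1, 2 or 3, with adjusted p from 0.0519 to 0.207. In these mianserin libraries the oligodendrocyte sum was 167 to 192, against 131 to 184 in saline, and the cortical neuron sum 189 to 235 against 180 to 231. The cortical neuron marker Neurod2 was called higher with either control (0.40, adjusted p = 0.0107, and 0.36, 0.0418). The other 7 of the 8 cortical neuron markers were not called with either control. The part of these markers in the difference was not tested. The test of the mianserin difference between the tissues gave 0.00 ± 0.12 (SE) on the log2 scale, with an adjusted p of 0.992 and 0.119% of all genes called.

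**Figure D3:**
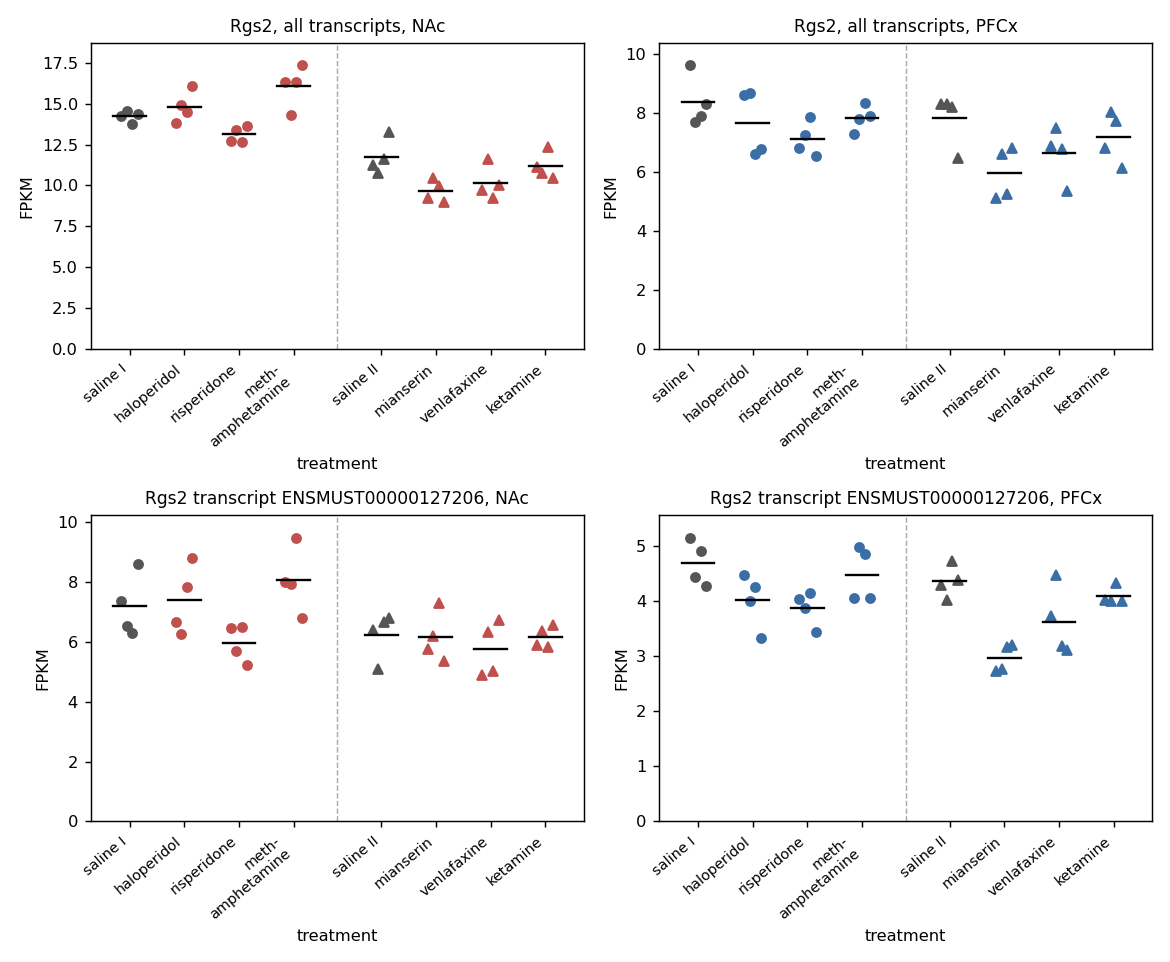
FPKM of the gene Rgs2 and of its transcript ENSMUST00000127206 in every library, by treatment and tissue; circles are sample set I, triangles set II, black bars means and the dashed line separates the sets. Mianserin libraries lie at 8.99 to 10.4 for the gene in the NAc, and at 2.73 to 3.20 for the transcript in the PFCx, below all 8 saline libraries in both cases.

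The 4 transcripts of Rgs2 were also tested one by one. ENSMUST00000127206, of 3021 bases with a coding sequence for 211 residues, was at 2.73, 2.77, 3.17 and 3.20 FPKM in the PFCx after mianserin. Over the 8 saline libraries of the PFCx it was at 4.02 to 5.15 with a median of 4.405, so that the groups did not overlap. The log2 difference was -0.48 (SE 0.08, adjusted p over all transcripts 0.00134, exact permutation p = 0.00202), where 0.351% of all transcripts were called. Against saline II, with 0.916% called, it was -0.43 (SE 0.09, adjusted p = 0.0116, exact permutation p = 0.0286), so that this transcript, unlike the gene total, was called with either control. In the NAc the same transcript had means of 6.15 after mianserin and 6.72 in saline, a log2 difference of -0.11 (adjusted p = 0.718), and -0.02 against saline II. The test of this difference between the tissues gave 0.37 (SE 0.13), which was not called over all transcripts (adjusted p = 0.380, with 0.0139% called).

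Another Rgs2 transcript was called in the NAc after mianserin. ENSMUST00000027606, of 763 bases and annotated as subject to nonsense-mediated decay, was listed at 0.355, 0.552, 3.2e-05 and 0.702 FPKM after mianserin. In the 8 NAc saline libraries it was at 1.76 to 3.90, above all 4. The log2 difference was -1.38 (SE 0.31, adjusted p = 0.0377, exact permutation p = 0.00202), with 0.504% of all transcripts called, and against saline II -1.30 (adjusted p = 0.250, exact permutation p = 0.0286, with 0.162% called). In the PFCx it differed by -0.33 (adjusted p = 0.890). The difference between the tissues was -1.05 (SE 0.47) and was not called (adjusted p = 0.538). The transcripts of a gene compete for reads in the estimate, and the part of this division in the calls was not tested.

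Rgs14 was higher in the NAc after both antipsychotics, haloperidol and risperidone, against all saline. Haloperidol libraries were at 19.6, 19.9, 19.1 and 19.0 FPKM and risperidone libraries at 20.4, 18.6, 17.7 and 22.2. Saline was at 13.2, 18.6, 14.6 and 16.4 in set I and at 12.4, 12.9, 12.8 and 12.6 in set II. Haloperidol lay above all saline libraries, while for risperidone the highest saline library, saline I 2, lay within the range. For haloperidol Rgs14 rose by 0.44 on the log2 scale against all saline (SE 0.10, adjusted p = 0.0397, exact permutation p = 0.00202). Against saline I the difference was 0.30 (adjusted p = 0.524, exact permutation p = 0.0286). For risperidone it rose by 0.46 (SE 0.10, adjusted p = 0.0305, exact permutation p = 0.00606), and against saline I the difference was 0.32 (0.416 and exact 0.0857). The spiny neuron sum was 663 to 761 after haloperidol and 745 to 801 after risperidone, against 585 to 796 in saline. The cortical neuron sum was 67.9 to 88.9 and 47.3 to 72.4, against 28.3 to 75.5. The oligodendrocyte sum was 646 to 712 and 594 to 690, against 512 to 703, and the endothelial and mural sum 18.5 to 20.4 and 17.4 to 20.1, against 19.8 to 24.5. The spiny neuron marker Rasd2 was called higher after risperidone against all saline (0.50, adjusted p = 0.0152) but not against saline I (0.35, 0.284). The other 8 of the 9 spiny neuron markers were not called after risperidone with either control. The part of these markers in the differences was not tested.

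Methamphetamine, of the same sample set, gave Rgs14 levels of 14.9 to 16.2 FPKM, within the range of saline I. The sets lay apart in saline here too, with NAc means of 15.7 in set I and 12.7 in set II and PFCx means of 9.54 and 7.34 (exact permutation p = 0.0286 each, adjusted 0.190). Without any 1 haloperidol library, or any 1 library of saline II, the haloperidol call was lost (adjusted p = 0.0773 to 0.104). The risperidone call was lost without risperidone 1, 2 or 4 or any 1 library of saline II (0.0573 to 0.148). Neither was called when only protein-coding transcripts were summed (0.22 and 0.15, adjusted p = 0.259 and 0.415). After 75th percentile scaling, which moved the median of all genes to -0.18 and -0.17, the differences were -0.070 and -0.029 against all saline and 0.28 and 0.32 against saline I, none called. No single Rgs14 transcript was called. The differences of the coding ENSMUST00000063771 were 0.22 and 0.15, and those of the retained-intron ENSMUST00000135851 0.98 and 0.83.

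Rgs20 was higher in the NAc after mianserin. Its levels were 8.04, 8.60, 8.88 and 8.02 FPKM, against 5.37, 5.74, 7.34 and 6.41 in saline I and 6.08, 7.54, 6.97 and 6.44 in saline II. All 4 mianserin libraries lay above all 8 saline libraries. Rgs20 rose by 0.33 on the log2 scale (SE 0.08, adjusted p = 0.0311, exact permutation p = 0.00606), and against saline II the difference was 0.28 (adjusted p = 0.292, exact permutation p = 0.0286). The call was lost with protein-coding transcripts alone (0.16, adjusted p = 0.496), and without mianserin 2, 3 or 4 or saline I 1, 2 or 4 (0.0524 to 0.0944). After 75th percentile scaling Rgs20 differed by 0.80 from all saline (adjusted p = 0.0108, with 27.5% of all genes called) and by 0.29 from saline II (0.0852). For these mianserin libraries the spiny neuron sum was 564 to 735, against 585 to 796 in saline. Among the Rgs20 transcripts 1 was called with a drug, the processed transcript ENSMUST00000133521 in the NAc after ketamine (0.40, adjusted p = 0.0484, with 0.2% of all transcripts called), and it was not called against saline II (0.36, 0.187).

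**Figure D4:**
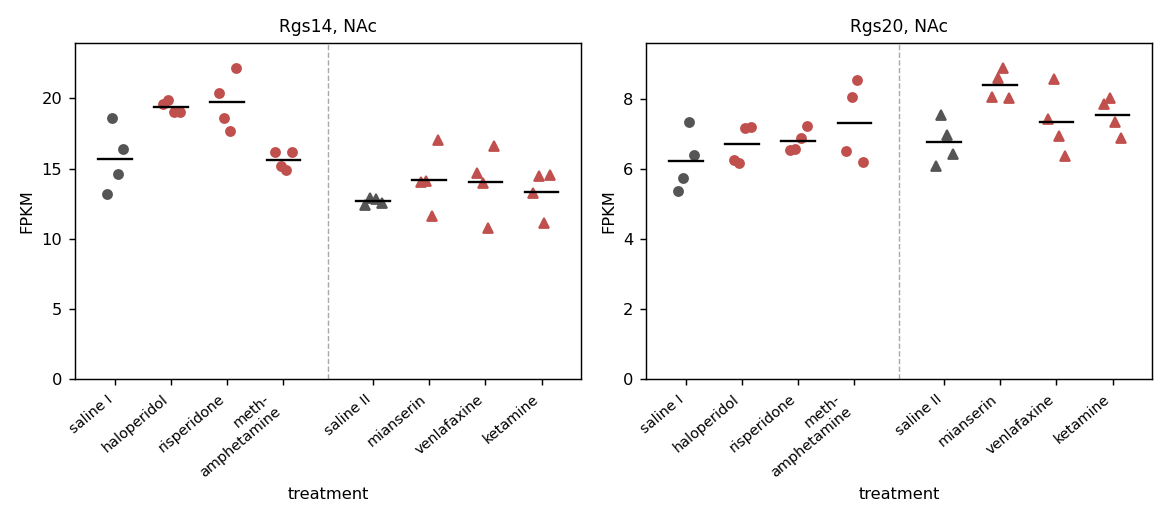
FPKM of Rgs14 and Rgs20 in the 32 NAc libraries by treatment; circles are sample set I, triangles set II, black bars means and the dashed line separates the sets. The 4 haloperidol libraries of Rgs14 (19.0 to 19.9) and the 4 mianserin libraries of Rgs20 (8.02 to 8.88) lie above all saline libraries.

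Rgs4 was called in the NAc by the F test but for no single drug. Its NAc levels were 30.2 to 37.5 FPKM after haloperidol, 25.7 to 32.6 after risperidone, 28.0 to 31.8 after methamphetamine and 35.2 to 39.5 after ketamine, against 30.9 to 37.9 in saline. The differences nearest to a call were -0.19 for risperidone (adjusted p = 0.208) and -0.16 for methamphetamine (0.354). In the PFCx methamphetamine libraries were at 58.1, 55.9, 55.9 and 55.6, above the highest saline library at 54.9, with a difference of 0.15 that was not called (adjusted p = 0.474, exact permutation p = 0.00808). The F test of the difference between the tissues called Rgs4 as the only member (adjusted p = 0.00288), with 12.9% of all genes called. Against saline of the same set it was not called (0.831, with 0.759% of all genes called). No single interaction contrast of Rgs4 was called, and the largest was that of methamphetamine at -0.31 (SE 0.09, adjusted p = 0.386, with 0% of all genes called).

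The other 6 members had no called pair with any drug in either tissue. Rgs9, the leading NAc member, was at 53.9 to 68.5 FPKM after haloperidol, 52.4 to 67.7 after risperidone and 56.2 to 71.1 after methamphetamine, each overlapping the saline range of 58.0 to 76.9. The F test over the drugs gave it an adjusted p of 0.662 in the NAc. In the PFCx the highest Rgs9 level after a drug was 10.1, in risperidone 3. Rgs7 was at 7.32 to 8.94 FPKM in the NAc after ketamine, against 5.38 to 8.98 in saline, a difference of 0.25 (adjusted p = 0.115). Rgs8 was at 20.9 to 24.3 after ketamine against 22.1 to 30.2, a difference of -0.17 (adjusted p = 0.222). All 4 ketamine libraries lay below those of saline II, of the same set, at 24.6 to 30.2. Rgs16, at or near 1 FPKM throughout, was at 1.33 FPKM on average in the PFCx after risperidone against 0.961 in saline (0.25, adjusted p = 0.199). After mianserin Rgs16 was at 1.06 to 1.63 in the PFCx, above all libraries of saline II at 0.769 to 1.03. The share of all genes without overlap with saline of the same set is not given here. Rgs10 was at 2.78 to 4.03 in the PFCx after venlafaxine against 3.04 to 7.45 in saline, a difference of -0.40 (adjusted p = 0.522). The saline libraries of set II, that of venlafaxine, were at 3.04 to 5.06, and those of set I at 4.41 to 7.45. The PFCx means of Rgs10 were 3.27 after venlafaxine, 3.96 in saline II and 5.54 in saline I. Rgs17 was at 7.04 to 8.02 in the NAc after ketamine against 5.73 to 7.39, a difference of 0.15 (adjusted p = 0.270). A p above the threshold with 4 libraries does not show that these members kept their levels.

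**Figure D5:**
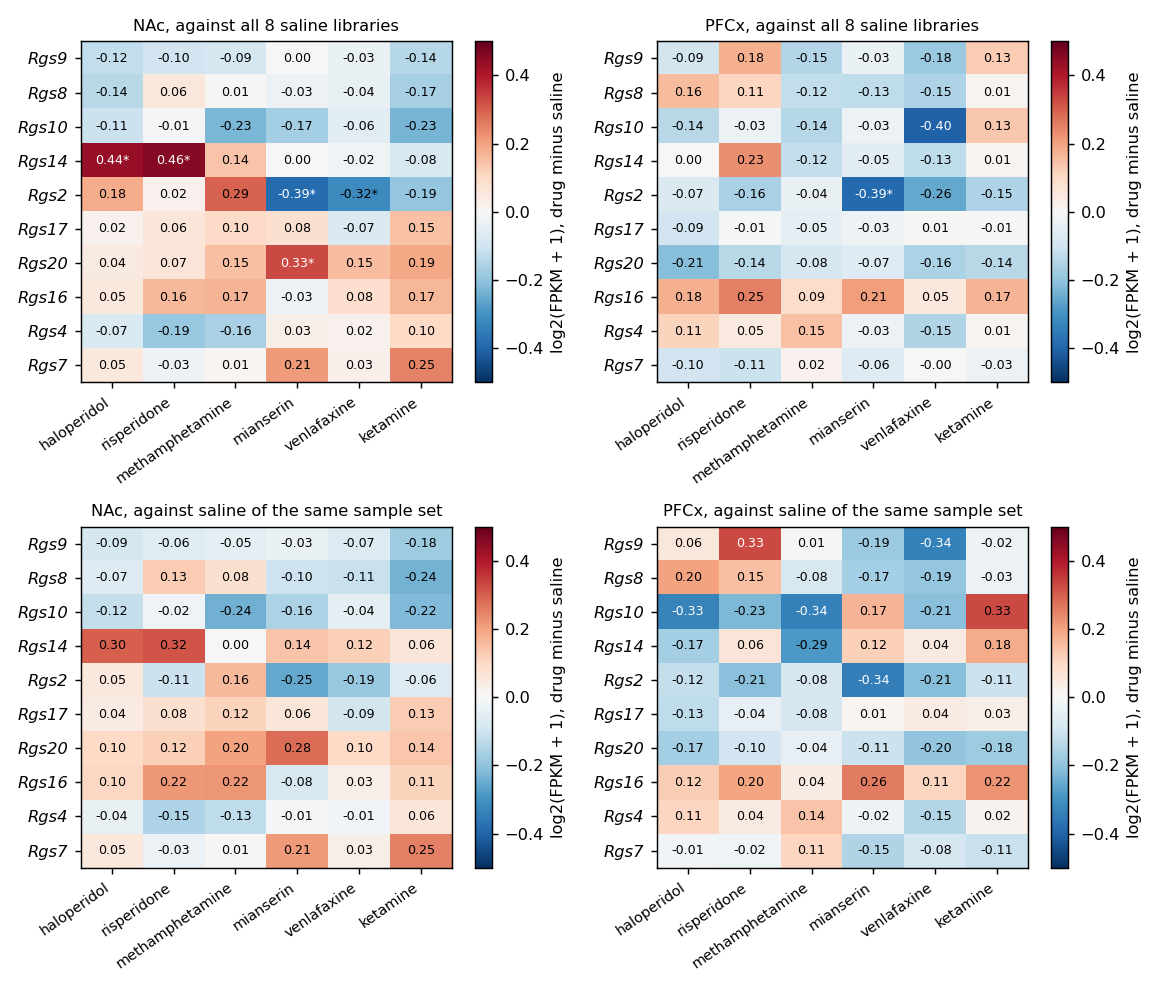
Drug minus saline differences on the log2(FPKM + 1) scale for the 10 members and 6 drugs in each tissue, with colour running from -0.5 (blue) to 0.5 (red), against all 8 saline libraries (upper panels) and against the 4 of the same sample set (lower panels); an asterisk marks an adjusted p under 0.05. No cell is marked in the lower panels, and the 6 marked cells of the upper ones are Rgs2 (mianserin and venlafaxine), Rgs14 (haloperidol and risperidone) and Rgs20 (mianserin) in the NAc and Rgs2 (mianserin) in the PFCx.

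The other genes of the pathway gave few calls with the drugs, and most of them were not called against saline of the same set. In the NAc the relatives and partners gave 4 higher and 1 lower call in 120 pairs of gene and drug against all saline, and 1 higher call against saline of the same set. Gpsm1, a binder of inactive Gi, was higher after risperidone with either control (0.41, adjusted p = 0.00166, and 0.35, 0.0491). After haloperidol it was called only against all saline (0.30, 0.0355, and 0.24, 0.415 against saline I). The same held for Rgs13 after mianserin (0.22, 0.0428, and 0.15, 0.479) and for Rgs7bp, the membrane anchor of the R7 proteins, after ketamine (0.16, 0.0452, and 0.13, 0.254). Gnb5, their obligate partner, was lower after venlafaxine against all saline (-0.51, 0.0482) and not called against saline II (-0.32, 0.834).

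Of 78 G alpha pairs in the NAc 2 were called against all saline and 1 against saline of the same set, all higher. Gnai1 was higher after ketamine with either control (0.24, adjusted p = 0.0341, and 0.28, 0.0396). Gnaz, the target of the RZ subfamily, was called after haloperidol against all saline alone (0.32, 0.0431, and 0.15, 0.659). Of 84 G beta and gamma pairs 1 was called in the NAc against all saline, Gnb3 after mianserin (0.32, 0.0355), and 0 against saline of the same set, where Gnb3 was at 0.17 (0.536). In the PFCx the only G beta or gamma call was that of Gng13 after ketamine against saline II (0.74, 0.0487), with -0.04 (0.983) against all saline. The effectors gave 1 call of 84 pairs in each tissue against all saline, both of the adenylyl cyclase Adcy9. It was higher in the PFCx after mianserin with either control (0.30, 0.00785, and 0.28, 0.0267), and in the NAc after risperidone against all saline alone (0.24, 0.0397, and 0.25, 0.145). Of 144 receptor pairs in the NAc 1 was called, Adora2a after ketamine (-0.42, 0.0130), which was not called against saline II (-0.37, 0.0732). In the PFCx the relatives and partners, the G alpha genes and the receptors gave 0 calls by limma with either control.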

How the data were processed

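RNA depleted of ribosomal RNA was sequenced on an Ion Proton instrument. The authors aligned the reads with TopHat2 2.0.1 and Tmap and estimated transcript levels with Cufflinks 2.2.1 on the Ensembl annotation of GRCm38. The deposited tables give, per library, the FPKM of each annotated transcript (unit FPKM, scaled to mapped fragments by the authors) and the deposited read coverage, a signal in reads per base that is not scaled to depth. They hold 112714 transcripts of 46785 genes and no read counts. Depth was taken from coverage divided by FPKM, as the median over transcripts with 2000 or more bases and an FPKM of 5 or more. No column of other samples was present.

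Transcripts were summed per gene identifier, and a symbol shared by several identifiers was kept apart. The 37034 genes whose mean FPKM reached 0.1 in the NAc or PFCx were tested on log2(FPKM + 1). This scale understates the fold change of low genes. All 10 members passed. limma 3.58.1 in R 4.3.3 was used with Benjamini-Hochberg adjustment over all genes and a threshold of 0.05. Saline tissues were compared over 16 libraries. Drugs were compared over the 32 libraries of a tissue, and the drug by tissue difference over all 64. Two-sided exact permutation tests on the size of the difference used scipy 1.17.1, numpy 2.4.6 and pandas 2.3.3 in Python 3.11.15, with a smallest p of 0.00202 for 4 against 8 libraries. Simulated data with known changes were used to test the limma code. Transcript types and lengths came from GENCODE vM21 and promoters from RefSeq.

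All 10 members were tested in every comparison, and those without a call with a drug are given by their differences in a plot and by examples. From lists of partners, G proteins, effectors, receptors and cell type markers at most 2 genes with the lowest adjusted p were named, and libraries or transcripts singled out otherwise were chosen after their values were seen. The members and lists were chosen with earlier results of these data known. Sample sets were read from the number of transcripts above 0 in the NAc. Libraries with the same replicate number as saline of their set deviated together in all 4 pairs (r over 0.1) in 6 of 12 comparisons: NAc haloperidol, risperidone, mianserin and methamphetamine, and PFCx haloperidol and methamphetamine. There the numbers were taken to pair the libraries, from the data and not from the labels. The main limma fits and the exact permutation tests did not use this pairing. It entered the drug tests only as the block, where libraries of the same number in sets I and II shared a term.

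The alternatives tried were 75th percentile scaling, a pseudocount of 0.1, a minimum mean FPKM of 1 or none, protein-coding transcripts only, transcripts of complete status only, limma with a mean-variance trend, the replicate number as a block, single transcripts, saline set I or II alone, saline of the same set, and leaving out each library in turn. Saline of the same set combined with the block or with 75th percentile scaling was chosen after seeing the data. Reads and protein sequences were not used here.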

Additional observations from a re-analysis of the deposited data

Results flagged for a closer look

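In 140 groups of 4 or 8 libraries, 7 held a library whose gap to the nearest other was a larger part of the group's range than Dixon's 95% limit allows, and chance gives about 1 in 20. Rgs4 in NAc haloperidol 4 was at 37.5 FPKM, against 30.2 to 31.2 in the other 3. Rgs4 in PFCx methamphetamine 1 was at 58.1 (others 55.6 to 55.9), and Rgs7 in PFCx methamphetamine 2 at 10.8 (others 14.4 to 14.9). The library PFCx ketamine 3 was high in both Rgs10, at 7.25 (others 4.43 to 4.82), and Rgs20, at 5.41 (others 4.496 to 4.62). Among the 8 PFCx saline libraries, Rgs9 was at 12.5 in saline II 4 (others 3.70 to 5.35) and Rgs16 at 1.34 in saline I 4 (others 0.755 to 1.03). By limma's F test the drug effect on Rgs4, as the only member, differed between the tissues (adjusted p = 0.00288). That test called 12.9% of all genes. Against saline of the same sample set Rgs4 was not called (0.831, with 0.759% of all genes called).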

How the results depend on the processing

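The tissue comparison called 8 to 9 members when any 1 library was left out and 5 after 75th percentile scaling (33.7% of all genes, 1.45% higher and 32.3% lower), where Rgs16 (-0.13), Rgs17 (-0.13) and Rgs20 (-0.14) changed sign. Rgs16 was at -0.044 with saline set I alone. Rgs4, Rgs7, Rgs8, Rgs9 and Rgs10 kept direction and call under all 27 alternatives each, with single transcripts judged on 1 transcript per gene. Of all tested transcripts, 1 of 3 was called for Rgs4, 3 of 8 for Rgs7 and 6 of 10 for Rgs8. For Rgs9 it was 5 of 5 and for Rgs10 2 of 6. In the NAc the F test over the drugs called 4 members, 3 to 5 with 1 library left out, 2 with a pseudocount of 0.1 or with protein-coding transcripts only, 10 after 75th percentile scaling (where 77.5% of all genes were called), 1 against saline of the same set with or without that scaling, and 0 when the replicate number was added to it as a block. In the PFCx it called 0, 0 to 1 with 1 library left out (1 without ketamine 2 or saline II 4), and 1 for single transcripts. Single drugs in the NAc gave 5 called pairs, 3 to 5 with 1 library left out (3 without any 1 of saline II 1 to 4 or of saline I 1, 2 and 4), 3 with a pseudocount of 0.1, 2 for single transcripts and 17 after 75th percentile scaling, of which 1 was among the 5. All 17 were higher, and that scaling called 27.5% of all genes for mianserin, 33.9% for venlafaxine and 22.4% for ketamine. There were 0 with protein-coding transcripts only and 0 against saline of the same set, with or without the block or the scaling. In the PFCx the 1 call became 0 under a pseudocount of 0.1, 75th percentile scaling, protein-coding transcripts only and saline of the same set with or without the block or the scaling, and was 0 to 1 with 1 library left out. The difference between the tissues was called for 1 member, for 1 to 2 with 1 library left out (2 without PFCx venlafaxine 4), for 10 after 75th percentile scaling (62% of all genes) and for 0 against saline of the same set, with or without the block or the scaling. After 75th percentile scaling NAc Rgs2 was at 0.10 for mianserin and 0.21 for venlafaxine, and NAc Rgs14 at -0.070 for haloperidol and -0.029 for risperidone. That scaling moved the median of all genes in the NAc by 0.18 to 0.21 for the drugs of set II and by -0.18 to -0.17 for those of set I. With saline of the same set as control, the scaled NAc medians were 0.010 for mianserin, 0.019 for venlafaxine and -0.0016 for ketamine. They were 0 for haloperidol, risperidone and methamphetamine. The causes of these changes were not tested. For a pseudocount of 0.1, protein-coding transcripts only, single libraries left out and the block, shares of all genes are not given here. Counts under those alternatives describe the members only.

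With the replicate number as a block against all saline, the 6 called pairs kept their calls (adjusted p = 0.0097 to 0.0437), and no other call of a drug pair changed. Of the 48 drug libraries 36 correlated best with the saline library of their own number. In the 6 comparisons where not all pairs were over 0.1, r ranged from -0.10 to 0.64, and between the saline tissues from -0.37 to 0.08. The tables hold no counts, so that no interval of counting error could be given, and 4 libraries per drug limit what could be called.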

Other observations

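The genes whose levels were most like those of the called members over the 64 libraries were looked up among 15523 genes with a mean of at least 1 FPKM, after each tissue and sample set was centred. These correlations are a description, since the libraries share depth and preparation. Nearest to Rgs2 were Rbm3, a cold-inducible RNA-binding protein, Ccnt2, a cyclin that activates transcription elongation, and Rbm12b2, each with an r of 0.60. Nearest to Rgs14 were Rpsa-ps10 at 0.61, Rnf114 at 0.60 and Rasgef1a at 0.58. Nearest to Rgs20 were Gm37954 at 0.55, Gm24253 at 0.54 and Psg16 at 0.54.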
